A study of Homo sapiens with 16 samples.

Results

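Squamous differentiation genes are the genes that epithelial cells use to build a cornified, barrier-forming layer. Here 10 of them, of 26475 genes in the count table, are described in MCF10A cells: *CSTA*, *AQP3*, *SPRR1A*, *SPRR1B*, *SPRR3*, *IVL*, *TGM1*, *SFN*, *LCN2* and *KLK10*. The set was selected on the levels of *CSTA* and *AQP3*, which were lower with both inhibitors than with collagen alone in these libraries. Values of the 10 genes in the comparisons with collagen alone are therefore given below as a description, without p-values. The calls of these genes there are counted with nothing read from them. All 10 genes were found in the table by symbol.

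MCF10A is an immortalized, non-tumorigenic human breast epithelial line, so the data describe 1 cell line grown on plastic. RNA-seq was available for 16 libraries in 4 groups of 4. Control cells received DMSO as vehicle and no collagen, and collagen cells received DMSO and collagen 1. The DDR1i group received collagen and DDR1-IN-1 at 2 μM, an inhibitor of the collagen-binding receptor tyrosine kinase DDR1. The RUNXi group received collagen and AI-10-104 at 5 μM, which keeps CBFβ from pairing with RUNX transcription factors. Inhibitors were present for 48 h and collagen, at 0.05 mg/mL, for the final 24 h. The labels number the replicates but do not say whether these were separate cultures, so p-values measure the spread between these libraries, which may be technical.

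Total counts per library were 12184619 to 44332378, and 1 count in the smallest library equalled 0.0799 normalized CPM (read counts scaled to a common library size, after TMM correction). Of the markers fixed for the cell line, 10 of 10 epithelial genes were counted in all 16 libraries, including *KRT5* and *TP63*. Their summed level was 11076 to 14497 CPM with DDR1i, below the 15573 to 21151 CPM of the control and collagen groups and the 17794 to 20577 CPM with RUNXi. Most of this sum came from the keratins *KRT5* (6971 to 11592 CPM over all libraries), *KRT14* (1594 to 4757) and *KRT17* (776 to 3419). It therefore says little about less abundant markers such as *EPCAM* (20.2 to 48.2 CPM) or about the number of epithelial cells. Of 5 fibroblast markers, *COL3A1* was at 0 in every library and *DCN* was counted in all of them (1.39 to 30.1 CPM), and their sum overlapped between the groups. Of 4 immune markers, *LYZ* was at 0, *PTPRC* at 0.0289 CPM at most, and *CD68* was counted throughout (8.53 to 28.7 CPM). Of 3 endothelial markers, *CDH5* was at 0, *PECAM1* was counted in 14 libraries (at most 2.40 CPM) and *VWF* in 3 (at most 0.568 CPM). The hormone receptor *ESR1* was counted in 10 libraries (at most 1.56 CPM), and *PGR*, *CSN2* and *LALBA* were at 0. Collagen replicate 3, which the study removed as an outlier in its principal component analysis, was left out of the fits.

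In stratified squamous epithelia, differentiating cells replace their plasma membrane with the cornified envelope. Involucrin (*IVL*) and the small proline-rich proteins (*SPRR1A*, *SPRR1B*, *SPRR3*) are envelope precursors, and transglutaminase 1 (*TGM1*) crosslinks them. Cystatin A (*CSTA*) inhibits cysteine proteases and is itself built into the envelope, kallikrein 10 (*KLK10*) belongs to the family of secreted serine proteases active in shedding, and aquaporin 3 (*AQP3*) carries water and glycerol. Stratifin (*SFN*, 14-3-3σ) is an adaptor protein of epithelial cells, and lipocalin 2 (*LCN2*) is a secreted protein that binds iron siderophores. The breast is not a cornifying tissue, but basal-like breast cells in culture are known to transcribe several of these genes.

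*IVL*, *SPRR1A*, *SPRR3* and *SPRR1B* lie in this order within 124355 bases of the epidermal differentiation complex on chromosome 1 (GRCh37), on the plus strand. *IVL* spans chr1:152881022-152884362, *SPRR1A* chr1:152956557-152958290, *SPRR3* chr1:152974223-152976332 and *SPRR1B* chr1:153003679-153005376, and each has 2 exons. The other members are spread over the genome: *CSTA* at chr3:122044095-122060816 with 3 exons, *AQP3* at chr9:33441154-33447594 with 6, *TGM1* at chr14:24718320-24733638 with 15, *SFN* at chr1:27189640-27190947 with 1, *LCN2* at chr9:130911350-130915732 with 7 and *KLK10* at chr19:51515995-51523431 with 6. No exon of a member overlapped an exon of another gene in the table. The *SPRR1A* and *SPRR1B* transcripts are close copies: 431 aligned bases were 90.49% identical, with a longest shared run of 74 bases. Reads of the pair may thus have been split between them in a way that the counts do not show.

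Because the RUNXi group turns on RUNX binding to DNA, the promoters of the members were read for the RUNX core motif TGTGGT and the AP-1 motif TGAGTCA, on both strands, and for the TATA box TATAAA on the gene's strand. RefSeq promoter sequences (GRCh38.p14, the 250 bases before the start) were at hand for 8 members, all but *CSTA* and *TGM1*. *AQP3*, *SPRR1B* and *IVL* are shown because no RUNXi library reached the control range for them, and *SPRR1A* and *SPRR3* as their neighbours in the chromosome 1 cluster. Capitals mark the motifs. The coordinates are *IVL* chr1:152908296-152908545, *SPRR1A* chr1:152983831-152984080, *SPRR3* chr1:153001499-153001748 and *SPRR1B* chr1:153030953-153031202, on the plus strand, and *AQP3* chr9:33447594-33447843, on the minus strand, each written 5′ to 3′ along the gene.
IVL: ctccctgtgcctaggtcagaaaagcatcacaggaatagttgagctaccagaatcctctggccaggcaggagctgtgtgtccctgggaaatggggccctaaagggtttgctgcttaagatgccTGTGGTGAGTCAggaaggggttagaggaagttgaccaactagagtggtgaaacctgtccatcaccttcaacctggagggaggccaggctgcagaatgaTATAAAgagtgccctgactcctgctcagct
SPRR1A: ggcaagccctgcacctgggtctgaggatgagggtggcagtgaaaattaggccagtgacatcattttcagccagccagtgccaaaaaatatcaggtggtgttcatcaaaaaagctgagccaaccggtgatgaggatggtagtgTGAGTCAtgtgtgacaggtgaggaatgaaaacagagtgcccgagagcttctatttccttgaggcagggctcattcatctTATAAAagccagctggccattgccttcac
SPRR3: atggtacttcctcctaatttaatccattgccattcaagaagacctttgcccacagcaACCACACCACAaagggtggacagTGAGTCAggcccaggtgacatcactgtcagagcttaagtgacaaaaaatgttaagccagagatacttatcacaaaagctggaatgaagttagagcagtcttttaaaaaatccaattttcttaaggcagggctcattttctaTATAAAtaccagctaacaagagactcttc
SPRR1B: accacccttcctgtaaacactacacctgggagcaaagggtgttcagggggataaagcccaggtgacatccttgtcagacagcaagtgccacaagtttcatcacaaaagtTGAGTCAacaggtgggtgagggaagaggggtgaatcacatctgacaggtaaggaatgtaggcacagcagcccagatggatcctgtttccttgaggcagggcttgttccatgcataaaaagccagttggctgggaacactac
AQP3: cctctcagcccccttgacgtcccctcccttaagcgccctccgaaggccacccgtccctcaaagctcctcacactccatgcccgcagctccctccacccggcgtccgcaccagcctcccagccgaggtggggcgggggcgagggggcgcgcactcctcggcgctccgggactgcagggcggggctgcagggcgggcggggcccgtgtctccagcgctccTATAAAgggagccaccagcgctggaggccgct

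In *IVL*, the RUNX motif began 128 bases before the start and shared 1 base with the AP-1 motif, which began at 123, and a TATA box stood at 30. *SPRR3* held the RUNX motif on the minus strand at both 193 and 188 bases before the start, 1 base of which was shared between them, with an AP-1 motif at 170 and a TATA box at 29. An AP-1 motif was present in *SPRR1A* (108 bases before the start, with a TATA box at 29) and in *SPRR1B* (141), and neither held the RUNX motif in this window. *AQP3* held a TATA box at 32 and neither of the other motifs, and *SFN*, *LCN2* and *KLK10* held none. Over all 35116 promoters of the same length, 10.978% held the RUNX motif, 4.203% the AP-1 motif and 6.803% the TATA box. These matches describe the letters in the window and not binding.

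*CSTA* and *AQP3* were the genes that defined the set. *CSTA*, the protease inhibitor, had 134, 122 and 181 CPM in collagen replicates 1, 2 and 4. With DDR1i it had 93.4, 70.6, 70.0 and 81.1 CPM, and with RUNXi 100.3, 85.1, 72.7 and 70.4 CPM. All 8 inhibitor libraries thus lay below the 3 collagen libraries. Collagen cells had a mean of 145.5 ± 31.1 CPM (SD, n = 3), DDR1i cells of 78.8 ± 11 (SD, n = 4) and RUNXi cells of 82.1 ± 13.7 (SD, n = 4), and the log2 fold changes were -0.89 (standard error 0.15) and -0.83 (standard error 0.15). Collagen replicate 3 had 75.0 CPM, inside the range of both inhibitor groups and not of the other collagen libraries. In the control cells, which saw neither collagen nor inhibitor, *CSTA* had 85.1, 111, 65.9 and 104 CPM, a range that overlapped both inhibitor groups. Collagen replicates 1, 2 and 4 did not overlap the control, whereas collagen replicate 3, at 75.0 CPM, lay inside the control range. The log2 fold change of *CSTA* against the control was 0.68 (standard error 0.18) for collagen, without replicate 3. It was -0.21 (standard error 0.16) for DDR1i and -0.15 (standard error 0.16) for RUNXi. With the trend with transcript length described below removed, these 3 values became 0.32, -0.44 and -0.28.

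*AQP3*, the water and glycerol channel, had 28.6, 26.7 and 13.9 CPM in collagen replicates 1, 2 and 4, and 9.01 CPM in replicate 3. It had 8.99, 10.8, 5.70 and 5.30 CPM with DDR1i and 6.65, 3.05, 4.27 and 3.86 CPM with RUNXi. Every inhibitor library was below collagen replicates 1, 2 and 4, and collagen replicate 3 lay within the DDR1i range. The mean was 23.1 ± 7.96 CPM (SD, n = 3) for collagen, 7.69 ± 2.64 (SD, n = 4) for DDR1i and 4.45 ± 1.55 (SD, n = 4) for RUNXi, for log2 fold changes of -1.58 (standard error 0.31) and -2.37 (standard error 0.32). Unlike *CSTA*, *AQP3* was also below the control with both inhibitors. Control libraries had 24.1, 12.9, 16.4 and 17.4 CPM, and none of them overlapped an inhibitor library. The log2 fold change against the control was -1.19 (standard error 0.31) for DDR1i and -1.99 (standard error 0.32) for RUNXi, while that of collagen against the control was 0.38 (standard error 0.28) with overlapping ranges.

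**Figure D1:**
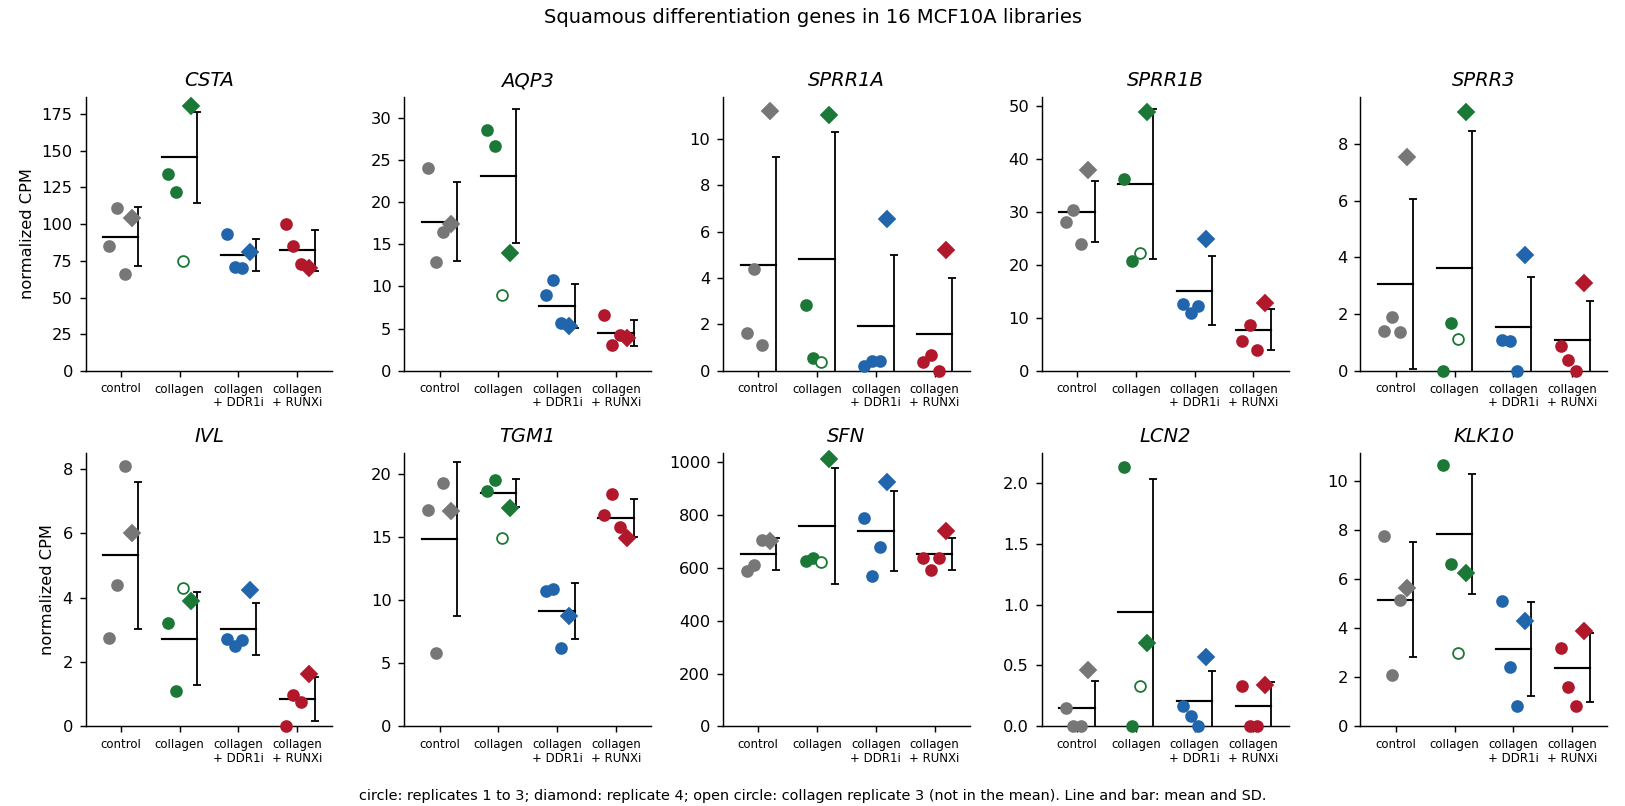
Level of the 10 genes in each of the 16 libraries (normalized CPM, one panel per gene with its own linear axis from 0). Points are libraries, diamonds are replicate 4, the open circle is collagen replicate 3, and bars are the mean and SD without that library, cut at 0. *CSTA* with the inhibitors sat at 70.0 to 100.3 CPM, within reach of the control, whereas *AQP3* with the inhibitors sat at 3.05 to 10.8 CPM, below every control library.

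Of the 10 members, 3 were called lower with DDR1i than with collagen alone (*CSTA*, *AQP3* and *TGM1*), at an adjusted p under 0.05, where 0.775% of the 13548 genes tested were called lower. With RUNXi 3 were called lower (*CSTA*, *AQP3* and *SPRR1B*), against 1.46% of all genes, and no member was called higher, where 1.69% of all genes were called higher with DDR1i and 2.59% with RUNXi. These are the comparisons that chose the set, so nothing is read from the counts. As a description, the median log2 fold change of the 10 members was -1.23 and -1.69 in these comparisons, against 0.00 and 0.01 for all genes tested. With collagen replicate 3 included, 0 members were called with DDR1i (0.0674% of all genes in either direction, and 2.47% without it) and 2 with RUNXi (*SPRR1B* and *AQP3*, with 0.449% of all genes, and 4.05% without it).

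The envelope precursor *SPRR1B* had the largest range of the cluster genes. Control libraries had 28, 30.4, 24.0 and 37.8 CPM, and collagen replicates 1 to 4 had 36.1, 20.7, 22.2 and 48.9 CPM. It had 12.6, 10.8, 12.2 and 24.8 CPM with DDR1i and 5.58, 8.63, 4.01 and 12.8 CPM with RUNXi. Every RUNXi library was below every control and collagen library, replicate 3 included, whereas DDR1i replicate 4 reached into both of these ranges. Means were 30.0 ± 5.82 CPM (SD, n = 4) in the control, 35.2 ± 14.1 (SD, n = 3) with collagen, 15.1 ± 6.49 (SD, n = 4) for DDR1i and 7.76 ± 3.88 (SD, n = 4) for RUNXi.

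Against the control, a comparison that holds no collagen-alone library, *SPRR1B* fell with RUNXi. The log2 fold change was -1.94 (standard error 0.31, edgeR adjusted p = 0.00279, quasi-likelihood test, Benjamini-Hochberg over all genes tested), and it was lower in 4 of 4 libraries than in any control library. With DDR1i the log2 fold change was -0.99 (standard error 0.30, edgeR adjusted p = 0.396), which did not pass. Between the inhibitors, *SPRR1B* was 0.95 higher with DDR1i on the log2 scale (standard error 0.37, 95% confidence interval 0.15 to 1.75, edgeR adjusted p = 0.651), and the ranges overlapped through RUNXi replicate 4 and the lower DDR1i libraries. Against collagen alone, as a description, the values were -1.23 (standard error 0.39) with DDR1i and -2.17 (standard error 0.40) with RUNXi.

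*IVL*, the classical envelope scaffold, was expressed at a low level. It had 2.74, 4.40, 8.10 and 6.01 CPM in the control, 3.20, 1.10, 4.31 and 3.89 CPM with collagen, 2.71, 2.50, 2.67 and 4.23 CPM with DDR1i and 0, 0.969, 0.765 and 1.64 CPM with RUNXi. The RUNXi libraries, with 0 to 43 counts each, were below all control and all DDR1i libraries and overlapped collagen replicate 2. The log2 fold change of RUNXi was -2.64 against the control (standard error 0.76, edgeR adjusted p = 0.22), lower in 4 of 4 libraries and not past the threshold. DDR1i was 1.83 above RUNXi (standard error 0.78, 95% confidence interval 0.23 to 3.43, edgeR adjusted p = 0.674), again with no overlap and not past the threshold. Against collagen alone *IVL* differed by 0.15 (standard error 0.81) with DDR1i and by -1.68 (standard error 0.82) with RUNXi.

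*SPRR1A* and *SPRR3* varied more between replicates than between groups. *SPRR1A* had 1.64, 4.40, 1.12 and 11.2 CPM in the control, 2.86, 0.566, 0.401 and 11 CPM with collagen, 0.212, 0.438, 0.445 and 6.56 CPM with DDR1i and 0.369, 0.692, 0 and 5.23 CPM with RUNXi. *SPRR3* had 1.42, 1.92, 1.37 and 7.55 CPM, then 0, 1.70, 1.13 and 9.14 CPM, then 1.10, 1.05, 0 and 4.10 CPM, then 0.862, 0.369, 0 and 3.09 CPM in the same groups. In all 4 groups the library numbered 4 was the highest for both genes, and it was the highest for *SPRR1B* too. Over 13518 genes, 2.00% were highest in replicate 4 of all 4 groups and 2.33% in replicate 3. What the number stands for is not given by the labels.

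With these libraries in each group, neither gene could be told apart between groups. The log2 fold change of *SPRR1A* was -1.28 (standard error 1.22, edgeR adjusted p = 0.998) for DDR1i and -1.53 (standard error 1.22, edgeR adjusted p = 0.882) for RUNXi against the control, and that of *SPRR3* was -0.98 (standard error 1.14, edgeR adjusted p = 0.998) and -1.49 (standard error 1.15, edgeR adjusted p = 0.874). The libraries numbered 4 decided these values. Leaving out 1 library at a time, *SPRR1A* ran from -3.62 (without DDR1i replicate 4) to -0.32 (without control replicate 4) for DDR1i and from -3.63 (without RUNXi replicate 4) to -0.58 (without control replicate 4) for RUNXi. Without the same libraries, *SPRR3* ran from -2.07 to -0.0032 and from -2.85 to -0.52. Against collagen alone the values were -1.36 (standard error 1.56) and -1.59 (standard error 1.56) for *SPRR1A* and -1.22 (standard error 1.59) and -1.72 (standard error 1.60) for *SPRR3*. Once group means were removed, *SPRR1A* and *SPRR1B* varied together over the 16 libraries (Pearson's r of log2 CPM 0.96, and 0.88 over the 12 libraries not numbered 4). This is a description of a pair that may share reads. For *SPRR1A* and *SPRR3* the values were 0.59 and -0.11.

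**Figure D2:**
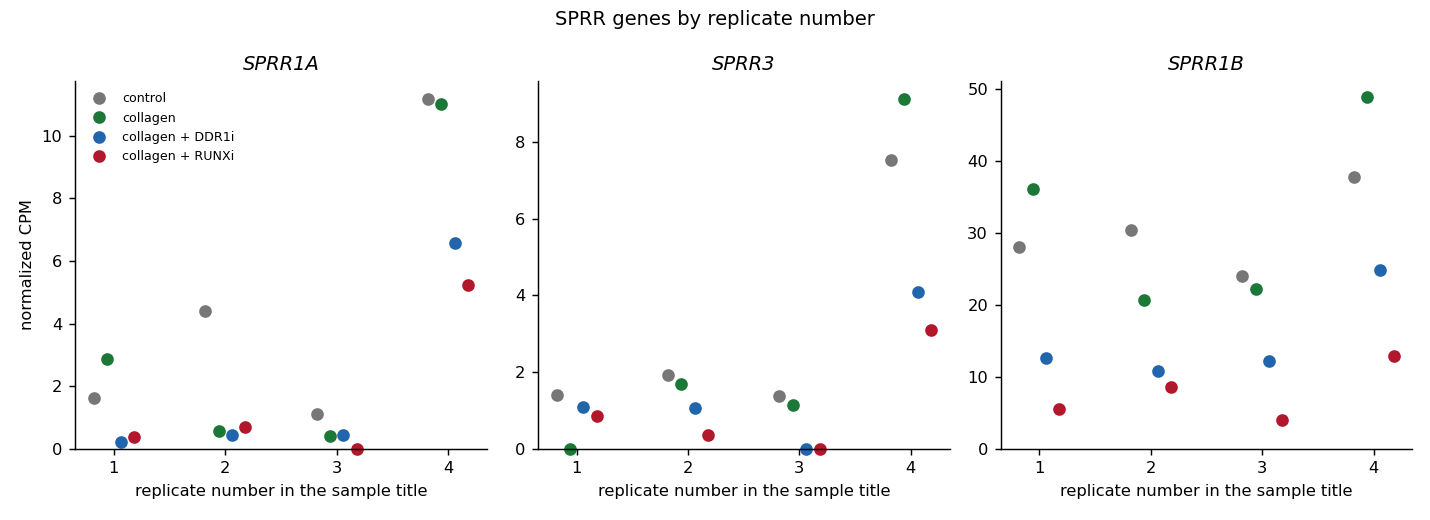
Level of *SPRR1A*, *SPRR1B* and *SPRR3* (normalized CPM) by replicate number, with points coloured by group and linear axes from 0. Replicate 4 was the highest library of each group for all 3 genes: *SPRR1A* had 5.23 to 11.2 CPM in replicate 4 and 0 to 4.40 CPM in the others. For *SPRR1B*, the RUNXi points lay at 4.01 to 12.8 CPM, below all control and collagen libraries.

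*TGM1*, the crosslinking enzyme, differed from the other members in that it was low with DDR1i and not with RUNXi. It had 10.8, 10.9, 6.18 and 8.77 CPM with DDR1i and 16.8, 18.5, 15.8 and 14.9 CPM with RUNXi. The groups did not overlap, and the RUNXi libraries lay among the collagen libraries, which had 18.7, 19.5, 14.9 and 17.4 CPM, replicate 3 included. Control libraries had 17.1, 5.83, 19.3 and 17.1 CPM, so that control replicate 2 was below all DDR1i libraries. DDR1i cells had a mean of 9.15 ± 2.20 CPM (SD, n = 4) and RUNXi cells one of 16.5 ± 1.52 (SD, n = 4).

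The set was picked on *CSTA* and *AQP3* against collagen alone and not on the direct comparison of the inhibitors. Its members were chosen with earlier results of these data known, so the p-values here may not be independent of that choice. In the direct comparison, *TGM1* was 0.557 times as high with DDR1i as with RUNXi. The log2 difference was -0.84 (standard error 0.21, 95% confidence interval -1.28 to -0.41, edgeR adjusted p = 0.0768), lower in 4 of 4 libraries, and missed the threshold over all genes. It passed with the trend with transcript length removed (edgeR adjusted p = 0.0382) and with DESeq2 (adjusted p = 0.0133). It did not pass with all 4 groups in 1 fit (edgeR adjusted p = 0.353), without the 4 libraries numbered 4 (edgeR adjusted p = 0.164), or with any 1 library left out (edgeR adjusted p up to 0.295). The log2 fold change against the control was -0.70 for DDR1i (standard error 0.29, edgeR adjusted p = 0.874) and 0.14 for RUNXi (standard error 0.29, edgeR adjusted p = 0.966). Without control replicate 2, that of DDR1i was -0.95, which did not pass either. Against collagen alone, as a description, the values were -1.02 (standard error 0.22) and -0.17 (standard error 0.22). The summed epithelial markers, mostly *KRT5*, *KRT14* and *KRT17*, were lower with DDR1i as well, and their part in the *TGM1* value was not tested. In bulk RNA, fewer cells that express a gene and less RNA of it per cell cannot be told apart.

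Over all members, 0 of 10 were called between DDR1i and RUNXi, where 0.568% of 13548 genes were called in either direction by edgeR. With *CSTA* and *AQP3* set aside, those at an unadjusted p under 0.05 were *TGM1*, *SPRR1B* and *IVL*, where 6.19% of all genes passed. DESeq2 called 1 (*TGM1*), where it called 0.905% of all genes. *AQP3* was 0.80 higher with DDR1i on the log2 scale (standard error 0.30), with overlap, and *CSTA* differed by -0.06 (standard error 0.14). Both genes were chosen for being lower in both inhibitor groups, so these values are a description, without p-values. The other 5 members differed by 0.19 (*SFN*) to 0.50 (*SPRR3*), with an edgeR adjusted p of 0.999 each. The compounds differ in target, dose and structure, and each was used at 1 dose and 1 time.

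The remaining members were *SFN*, *KLK10* and *LCN2*. *SFN* was the most abundant, at 569 to 1013 CPM over the 16 libraries, and its groups overlapped throughout, with collagen replicate 3 at 624 CPM. Its log2 fold change against the control was 0.19 for DDR1i (standard error 0.12, edgeR adjusted p = 0.998) and 0.00 for RUNXi (standard error 0.12, 95% confidence interval -0.24 to 0.24, edgeR adjusted p = 0.998). *KLK10* had 2.08 to 7.76 CPM in the control, 2.99 to 10.7 with collagen, 0.845 to 5.13 with DDR1i and 0.828 to 3.89 with RUNXi. All inhibitor libraries were below collagen replicates 1, 2 and 4, with log2 fold changes of -1.31 (standard error 0.53) and -1.70 (standard error 0.53), whereas collagen replicate 3 and the control overlapped them. Against the control, *KLK10* differed by -0.71 with DDR1i (standard error 0.60, edgeR adjusted p = 0.998) and by -1.11 with RUNXi (standard error 0.60, edgeR adjusted p = 0.79). *LCN2* was at 0 in 6 libraries and had at most 38 counts, in collagen replicate 1 (2.13 CPM), so that a difference was not detectable at this depth. Against collagen alone its log2 fold change was -2.19 (standard error 1.68) with DDR1i and -2.39 (standard error 1.67) with RUNXi, with overlapping ranges. Collagen replicate 3 had 0.328 CPM. *LCN2* did not pass the filter on low counts in the fit of the inhibitors with the control.

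**Figure D3:**
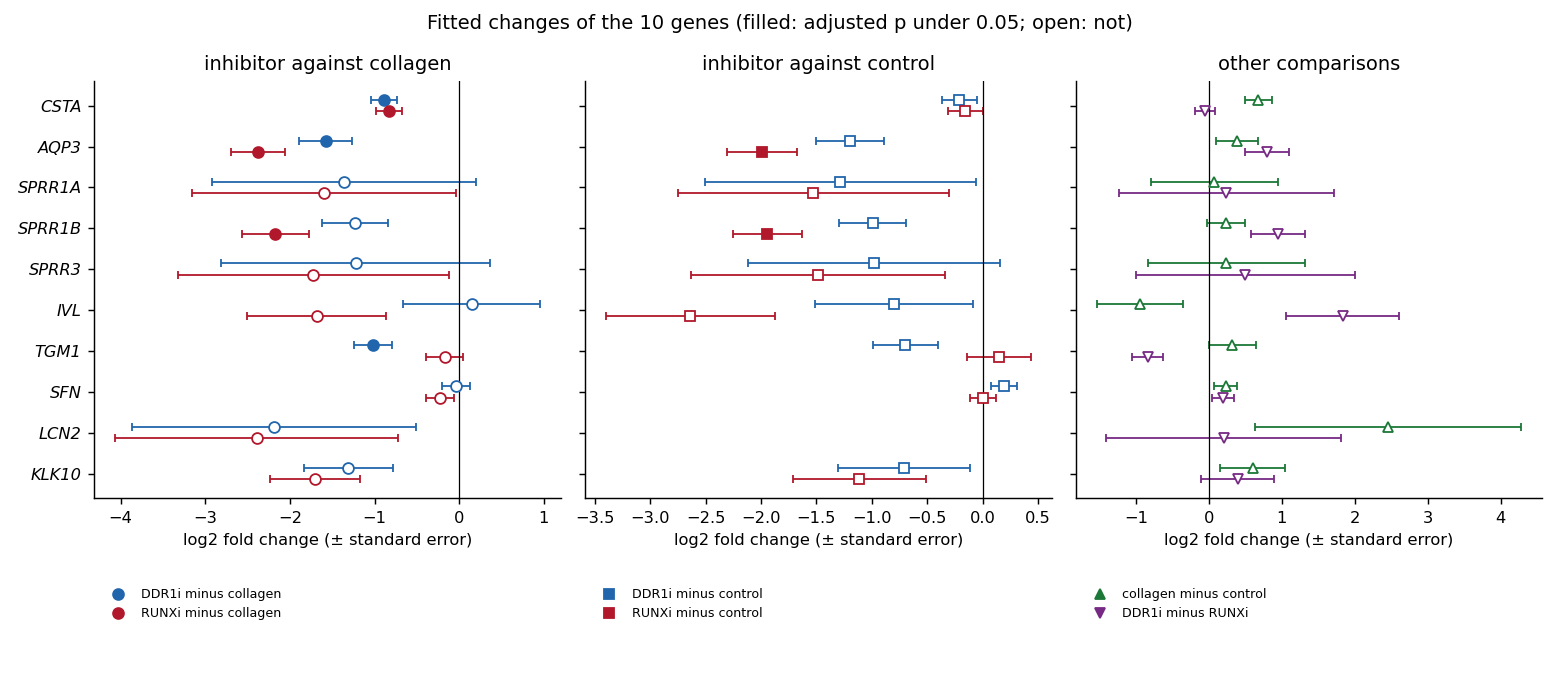
Log2 fold change of each member in the 6 comparisons, with filled points for an adjusted p under 0.05 in edgeR. Bars show the standard error on either side of the value and are narrower than 95% confidence intervals. In the comparisons with collagen alone, and for *CSTA* and *AQP3* in every comparison, the fill is a description, since the choice of genes used libraries compared there. *SPRR1B* and *AQP3* were low with RUNXi against both references, *CSTA* against collagen alone, and *TGM1* was low with DDR1i and near 0 with RUNXi.

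Collagen itself gave no call. *CSTA* and *AQP3*, whose collagen libraries chose the set, are left out of the counts that follow. Of the other 8 members, 0 were called by edgeR against the control, and so were 0% of the 13092 genes tested, with edgeR adjusted p-values of 0.528 to 0.987. At an unadjusted p under 0.05 there were 0 of the 8, where 13.4% of all genes passed. DESeq2 called 0 of the 8 and 5.81% of all genes. The lowest of the 8 members was *IVL*, at -0.95 on the log2 scale (standard error 0.59). The values were 0.24 (standard error 0.26) for *SPRR1B*, 0.32 (standard error 0.33) for *TGM1* and 0.23 (standard error 0.16) for *SFN*. Against the same control, DDR1i gave 0 of the 7 members tested (0.212% of 13213 genes in either direction by edgeR). An unadjusted p under 0.05 was found for 2 (*SPRR1B* and *TGM1*), where 5.13% of all genes passed. DESeq2 called 0 of the 7 and 0.485% of all genes. RUNXi gave 1 of 7, *SPRR1B*, where 0.159% of all genes were called lower and 0.401% in either direction. The comparisons of both inhibitors share the control libraries. Over the 9 members tested, *CSTA* and *AQP3* among them, the median log2 fold change was -0.80 for DDR1i and -1.49 for RUNXi, against 0.01 and 0.00 over all genes. These medians were the values of *IVL* (standard error 0.71) and *SPRR3* (standard error 1.15), 2 members with few counts. They are a description, and a shift of the set was not tested.

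A trend with transcript length ran through the comparisons with collagen alone. Genes whose transcript was at most 1960 bases long had a median log2 fold change of -0.19 with DDR1i and -0.22 with RUNXi, and genes over 5172 bases 0.24 with each. Collagen against the control ran the other way, from 0.24 in the shortest class to -0.26 in the longest, and the inhibitors against the control stayed between -0.02 and 0.05. Of the 10 members, 7 were at most 1960 bases long (*SPRR1B* 619, *SPRR1A* 648, *CSTA* 744, *LCN2* 820, *SPRR3* 900, *SFN* 1308 and *AQP3* 1825), and *IVL* (2152), *TGM1* (2744) and *KLK10* (2984) were longer. With the trend removed from each library, the log2 fold change of *CSTA* became -0.78 for DDR1i and -0.62 for RUNXi, and for *AQP3* it was -1.53 and -2.25.

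**Figure D4:**
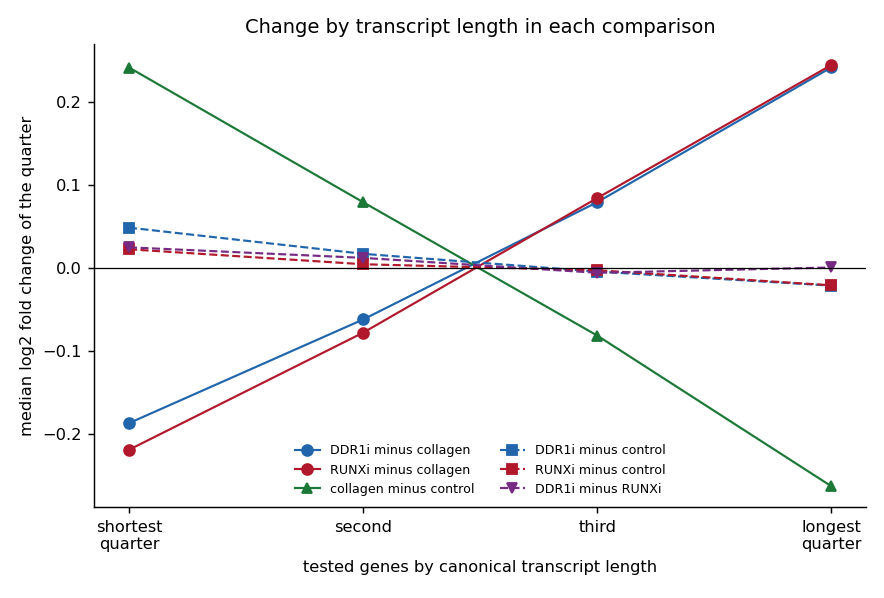
Median log2 fold change of all genes tested with a known transcript length, in 4 classes of equal size by length, for the 6 comparisons. Against collagen alone, the medians for both inhibitors rose from -0.19 and -0.22 in the shortest class to 0.24 in the longest, and those with the control stayed near 0.

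Compared per kilobase of transcript over all 16 libraries, *SFN* was the most abundant (mean 529.6 CPM per kilobase), followed by *CSTA* (128) and *SPRR1B* (34.3). The 16 values of *SFN* (435 to 774) did not overlap those of *CSTA* (88.6 to 243), nor those of *CSTA* the values of *SPRR1B* (6.48 to 78.9). *AQP3* (6.77), *TGM1* (5.29), *SPRR1A* (4.55), *SPRR3* (2.42), *KLK10* (1.45), *IVL* (1.43) and *LCN2* (0.401) followed, and neighbours in this part of the order overlapped.

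Other genes of squamous differentiation were taken from 11 lists by role, of which 113 genes were in the table and 63 to 65 were tested. The lists were chosen with earlier results of these data known, so the p-values of their genes may not be independent of that choice. Against collagen alone, 0 of 64 were called with DDR1i, where 2.47% of all genes were called in either direction. With RUNXi 1 was called higher and 1 lower, where 2.59% of all genes were called higher and 1.46% lower. The desmosomal plaque protein *DSP* rose with RUNXi (log2 fold change 0.80, standard error 0.19, edgeR adjusted p = 0.0244). The mucosal keratin *KRT13* fell (-6.38, standard error 1.64, edgeR adjusted p = 0.0307), on 378 counts in all 16 libraries. It had 2.41, 0.906 and 3.45 CPM in collagen replicates 1, 2 and 4, 0.365 in replicate 3, and 0 in 3 of the 4 RUNXi libraries, but was at 0 in control replicate 2 as well. For *DSP*, collagen replicate 3 (742 CPM) lay inside the RUNXi range and above the other collagen libraries. Over all 64 genes the median log2 fold change was -0.16 for DDR1i and -0.14 for RUNXi, against 0.00 and 0.01 over all genes tested.

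Against the control, the desmosomal cadherin *DSG3* fell with DDR1i (-0.59, standard error 0.12, edgeR adjusted p = 0.0422) and with RUNXi (-0.56, standard error 0.12, edgeR adjusted p = 0.0471), and the envelope plakin *PPL* fell with DDR1i (-1.57, standard error 0.32, edgeR adjusted p = 0.0484). *DSG3* had 82.8 to 108 CPM in the control and 57.7 to 67.8 CPM over both inhibitor groups, with no overlap. *PPL* had 14.7 to 43.6 CPM in the control and 6.5 to 13.7 CPM with DDR1i. Against the same control, collagen alone gave -0.56 for *DSG3* (standard error 0.21, edgeR adjusted p = 0.263) and -0.60 for *PPL* (standard error 0.41, edgeR adjusted p = 0.599). Against collagen alone, *DSG3* differed by -0.03 with DDR1i and 0.01 with RUNXi, and *PPL* by -0.97 with DDR1i (standard error 0.42, edgeR adjusted p = 0.238). Collagen replicate 3 had 79.4 CPM of *DSG3* and 20.0 CPM of *PPL*. No other of the 63 listed genes tested and reported was called against the control, where 0.212% of all genes were called with DDR1i and 0.401% with RUNXi. Between the inhibitors 0 of 64 listed genes were called by edgeR, and between collagen and the control 0 of 65.

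By list, the cornified envelope proteins (10 tested of 24) had a median log2 fold change of -0.04 with DDR1i and 0.34 with RUNXi against collagen alone. Of the paralogs of the *SPRR* members, *SPRR2A* had 198 counts in all libraries, *SPRR2D* 1113, *SPRR4* 72 and *SPRR2B* and *SPRR2F* 0. The transglutaminases had 1 gene tested of 3, *TGM2*, at 0.96 (standard error 0.33, edgeR adjusted p = 0.115) and 0.95 (standard error 0.33, edgeR adjusted p = 0.0976), opposite in sign to *TGM1* and not past the threshold. Collagen replicate 3 had 19.6 CPM of *TGM2*, above the inhibitors' means of 18.3 and 18.2 CPM, while the other collagen libraries had a mean of 9.37 CPM. The suprabasal keratins (4 of 7) had a median of -1.16 and -2.11, with 778 counts in all libraries for *KRT4* and 378 for *KRT13*, and the kallikrein proteases (3 of 9) of -0.98 and -0.94. The kallikreins tested, *KLK5*, *KLK7* and *KLK8*, had standard errors of 1.11 to 1.22, and none was called.

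Protease inhibitors (12 tested of 13) had a median log2 fold change of -0.47 with DDR1i and -0.50 with RUNXi, and the cystatin *CSTB* had a mean of 142 CPM with collagen, 132 with DDR1i and 118 with RUNXi, and 112 CPM in collagen replicate 3. The desmosomal genes (8 of 10) had a median of 0.03 and 0.04, the barrier lipid enzymes (4 of 9) of -0.03 and 0.27, and the 14-3-3 proteins (6 of 6) of -0.14 and -0.20. The differentiation transcription factors (14 of 20) had a median of -0.41 and -0.07, and none of them was called. Of 6 other aquaporins, 2 were tested, *AQP1* (232 counts in all libraries) and *AQP11* (318), with a median of 0.53 and 1.08. Their standard errors were 1.39 to 1.46, and neither was called. No lipocalin or lipocalin receptor other than *LCN2* was tested, and the 6 in the table had at most 31 counts each.

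The genes whose log2 CPM ran closest to *CSTA* over the 16 libraries, among 13518 genes, were *PSMA2* (Pearson's r = 0.94), *TMCO1* (0.93), *SSBP1* (0.93), *SLC25A5* (0.92) and *MRPS5* (0.92). For *AQP3* they were *S100A14* (0.89), *ID1* (0.88), *FAM213A* (0.88), *HOXA5* (0.85) and *SSRP1* (0.84). None of these was a member. Within the set, *CSTA* and *AQP3* had r = 0.51 over the 16 libraries, and 0.29 once group means were removed. *AQP3* and *KLK10* had 0.72 and 0.54. All of these values share the libraries, their depth and the group differences that chose the genes.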

How the data were processed

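RNA of MCF10A cells was sequenced by the authors (TruSeq libraries, Illumina NovaSeq). They aligned the reads with STAR to GRCh37/hg19, per the labels and methods, and deposited raw counts per gene and library. The counting tool, annotation and use of strand are not given in the sources used here. All columns were assigned to a sample from the labels, and total counts were 12184619 to 44332378. No pair of replicates agreed within sampling noise (chi-square over degrees of freedom at least 18.3), so each counts as 1 library.

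Tests used edgeR 4.0.16 under R 4.3.3 (quasi-likelihood, TMM, filterByExpr, robust fitting, Benjamini-Hochberg adjustment over all genes tested, threshold 0.05). The inhibitors were compared with collagen and with each other in 11 libraries, collagen with the control in 7, and the inhibitors with the control in 12, all without collagen replicate 3. The biological coefficient of variation was 0.287, 0.353 and 0.31 in these fits. Correlations used log2 CPM with a prior count of 2. Transcript lengths came from GENCODE lifted to GRCh37, to which 22606 gene names were matched. The length trend was removed from each library with splines of 4 degrees of freedom.

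The members and the 11 gene lists were chosen with earlier results of these data known. After the tests, 1 listed gene was taken out of the lists, for a reason unrelated to its values, and is not reported here. All members are named, with the genes of the lists that passed the threshold, paralogs of members, and the 5 genes closest to *CSTA* and to *AQP3*. No p is given for a member in the comparisons with collagen alone, nor for *CSTA* and *AQP3* in any comparison. Alternatives were DESeq2 1.42.0 (the authors' tool), its size factors in edgeR, other filters, robust fitting off, 1 fit of all groups, a replicate block, the length trend removed, an unadjusted threshold, collagen replicate 3 included and each library left out. On simulated data with 200 genes changed by 2 on the log2 scale, the test of DDR1i against collagen in 13351 genes called 195 changed genes (97.5%), 0 of them in the wrong direction, and 13 unchanged genes. The simulation gave every gene the same dispersion and changed only genes above a minimum of counts. It therefore does not give the share found for members with few counts, a wider spread or smaller changes. Plots were made in matplotlib 3.10.9 (Python 3.11.15).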

Additional observations from a re-analysis of the deposited data

Results flagged for a closer look

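In 7 of 40 sets of 4 values (10 genes in 4 groups), 1 library stood far from the other 3 by Dixon's test at the 95% level, where chance flags about 1 in 20, or 2 of 40. Replicate 4 was the high library in 6 of them: *SPRR1A* at 6.56 CPM with DDR1i and 5.23 CPM with RUNXi, *SPRR1B* at 24.8 CPM with DDR1i, *SPRR3* at 7.55 CPM in the control, *IVL* at 4.23 CPM with DDR1i and *SFN* at 1013 CPM with collagen. *TGM1* had 5.83 CPM in control replicate 2, the lowest of its group.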

How the results depend on the processing

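With collagen replicate 3 included, 0 members were called for DDR1i against collagen in place of 3 (0.0674% of all genes), and 2 for RUNXi (0.449%). At an unadjusted p under 0.05, 5 members were called for each inhibitor against collagen. Of all genes, 18% were called there with DDR1i and 21.1% with RUNXi. The same threshold gave 4 members between the inhibitors (6.19% of all genes). Against the control it gave 1 member for collagen (13.4% of all genes) and 3 for DDR1i (5.13%). Between the inhibitors, 0 became 1 with DESeq2 or with the length trend removed (*TGM1*) and 1 without a filter on low counts (*SPRR1B*). Of all genes, 0.905%, 0.714% and 0.91% were called in these settings, in this order. For collagen against the control, 0 became 1 (*CSTA*) with DESeq2, without a filter and with all 4 groups in 1 fit. The shares of all genes called were 5.81%, 1.57% and 2.28%, in this order. For DDR1i against the control, 0 became 1 with DESeq2 (*AQP3*), with 0.485% of all genes called. These calls of *CSTA* and *AQP3*, on which the set was chosen, are a description. DESeq2 gave no adjusted p for *AQP3* with DDR1i against collagen. Against the control, *SPRR1B* was called with RUNXi under all alternatives run, and DESeq2 called *IVL* too.

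Leaving out 1 library at a time gave 1 (without DDR1i replicate 3) to 4 (without collagen replicate 2) members for DDR1i against collagen, 3 to 4 for RUNXi against collagen, 2 for RUNXi against the control and 0 in the other comparisons. *TGM1* was not called with DDR1i against collagen without DDR1i replicate 3 or 4 or with all 4 groups in 1 fit, nor *AQP3* without DDR1i replicate 3. The 4 libraries numbered 4 were left out in an alternative chosen after seeing the data. Without them, *TGM1* was no longer called with DDR1i nor *CSTA* with RUNXi against collagen. There 2 members were called for each inhibitor, with 0.526% of all genes for DDR1i and 0.843% for RUNXi.

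Replicate numbers were checked as pairs. Libraries numbered 4 deviated together (correlation of deviations 0.161 to 0.276 over 6 pairs), but those numbered 1 (-0.09 to 0.10), 2 (-0.05 to 0.14) and 3 (0.03 to 0.10) did not all pass 0.1, so the numbers were not taken as pairs. As a hint from the data, 12 of 16 libraries were closest to their own number. A replicate block gave 4 members for each inhibitor against collagen, where 3.96% (DDR1i) and 5.6% (RUNXi) of all genes were called. Between the inhibitors it gave 2 (*SPRR1B* and *TGM1*), with 1.14% of all genes called, and 0.568% without the block. For collagen against the control it gave 0, with 0% of all genes. Each inhibitor against the control had 2 (*SPRR1B* and *AQP3*), with 0.878% of all genes for DDR1i and 1.23% for RUNXi.

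Of the member fold changes, those near 0 or carried by replicate 4 changed sign, none of them called. For *SFN* with DDR1i against collagen, the log2 value was 2e-04 with the replicate block, 0.10 with the length trend removed, 0.0195 with collagen replicate 3 and 0.10 without the libraries numbered 4. For *SFN* with RUNXi against the control it was -0.0014 without a filter and with the block, -0.10 with the trend removed and -0.023 without those numbered 4. *IVL* with DDR1i against collagen was -0.0566 with collagen replicate 3. For collagen against the control, *SPRR1A* was -0.57 with the block, -0.39 with the trend removed, -0.30 with collagen replicate 3 and -0.46 without those numbered 4, and *SPRR3* was -1.02, -0.23, -0.0329 and -0.85. With the trend removed, *SPRR1B* was -0.13 and *SFN* -0.0839 in that comparison.

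Leaving out 1 library at a time also changed signs. For DDR1i against RUNXi the ranges were -0.15 to 0.0538 for *CSTA*, -0.19 to 0.78 for *LCN2*, -2.11 to 2.36 for *SPRR1A* and -0.60 to 1.87 for *SPRR3*. For collagen against the control they were -0.0344 to 0.36 for *SFN*, -1.43 to 1.03 for *SPRR1A*, -0.0757 to 0.51 for *SPRR1B* and -1.82 to 1.21 for *SPRR3*. For DDR1i against collagen they were -0.25 to 0.50 for *IVL*, -0.18 to 0.23 for *SFN*, -3.71 to 0.15 for *SPRR1A* and -2.32 to 0.85 for *SPRR3*. For RUNXi they were -0.37 to 0.0459 for *SFN* and -3.09 to 0.34 for *SPRR3* against collagen, and -0.0569 to 0.0488 for *SFN* and -0.10 to 0.28 for *TGM1* against the control. The cause of these changes was not tested. *LCN2*, *SPRR1A*, *SPRR3* and *IVL* had 0 counts in some libraries, and their values rest on few reads.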
